A study of Mus musculus with 2 samples.

Results

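The proteasome genes were the 45 genes whose symbol begins with Psm followed by a letter from a to g and a number, leaving out the pseudogene symbols and the immunoproteasome genes Psmb8, Psmb9 and Psmb10. They were selected on measured values as well as on the name, because a gene also needed at least 100 UMIs (unique molecular identifiers, 1 for each captured RNA molecule) summed over both libraries. The name matched 47 of the 31253 genes listed, and 45 of them met the minimum. The genes just inside the minimum were Psmc3ip with 192 UMIs and Psmg3 with 406, and those outside it were Psma8, the testis form of an alpha subunit, with 57 and Psmb11, the thymus form of a catalytic subunit, with 1. Psmc3ip encodes a protein of meiotic recombination that binds Psmc3 and is no part of the proteasome. The list thus held 44 genes of proteasome subunits, assembly chaperones, activators and an inhibitor, and 1 that matched by name alone.

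The study profiled CD45+ cells, the leukocytes of a tissue, from livers of C57BL/6 mice in which intrahepatic cholangiocarcinoma, which arises from bile ducts within the liver, had been induced by hydrodynamic injection of transposon vectors for Myr-AKT and YAPS127A. Mice of both groups carried these vectors. From day 7 the NAV group received NAV2729, an inhibitor of ARF GTPases, at 30 mg/kg every other day for 7 days, and the MOCK group did not. Cells were pooled over tumours and captured in microwells with barcoded beads (BD Rhapsody), giving 1 library for each condition. The labels give the number of tumours in a pool in conflicting ways, neither age nor sex of the mice is stated, and liver leukocytes outside the tumours were not separated from those inside. With 1 library for each condition no spread between mice could be estimated, no test between MOCK and NAV was made, and treatment and library cannot be told apart.

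The proteasome degrades proteins that carry ubiquitin chains. Its 20S core is a stack of alpha and beta rings, and 3 of the beta subunits, Psmb6 (beta 1), Psmb7 (beta 2) and Psmb5 (beta 5), cut the substrate; in leukocytes, and in other cells exposed to interferon-gamma, Psmb9, Psmb10 and Psmb8 can take their places and form the immunoproteasome. The 19S cap binds and unfolds the substrate with a base of ATPases and scaffold proteins and a lid that removes ubiquitin.

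The MOCK library held 45976676 UMIs on 10863 barcodes (median 3840) and the NAV library 31454031 on 10465 (median 2169), and the proteasome genes took 0.370% and 0.383% of them. After filtering, 10134 MOCK and 9830 NAV cells were analysed, and 4 barcodes occurred among the cells of both libraries. The cells fell into 8 groups of at least 200 cells in each library, named by their marker genes, with "-like" because no authors' annotation was used. These were B-like, neutrophil-like, classical monocyte-like, nonclassical monocyte-like, macrophage-like, Kupffer-like and cDC2-like (conventional dendritic) cells, and a pool of T, NK and innate lymphoid-like cells. Ptprc, which encodes CD45, was found at 590 to 1573 CPM in all 8 groups of both libraries, where CPM is the UMI count scaled to a total of 1000000 UMIs in a group and library. Ratios are log2 of NAV over MOCK, each with a 95% interval that covers counting error only. A gene counted as measured in a group with at least 50 UMIs over both libraries, and as lower or higher with a log2 ratio of -0.5 or less, or 0.5 or more.

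Psmb5, the chymotrypsin-like catalytic subunit of the 20S core, and Psmd13, a scaffold subunit of the 19S lid, were lower in the NAV library in all 8 groups. Most other members lay at or slightly above a log2 ratio of 0 outside the neutrophil-like and Kupffer-like cells. In Kupffer-like cells 23 of the 44 members measured, these 2 included, lay below 0. Of the 35 members measured in all 8 groups these 2 were lower in every group, against 97 of 4774 genes (2.03%), and 0 members were higher in every group, against 0.0419% of genes. Counted over at least 5 groups, 2 of 43 members were lower, against 5.04% of the genes measured in at least 5 groups, and 0 were higher, against 0.522%. The members had been chosen with results of this contrast known, so these counts are a description only.

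**Figure D1:**
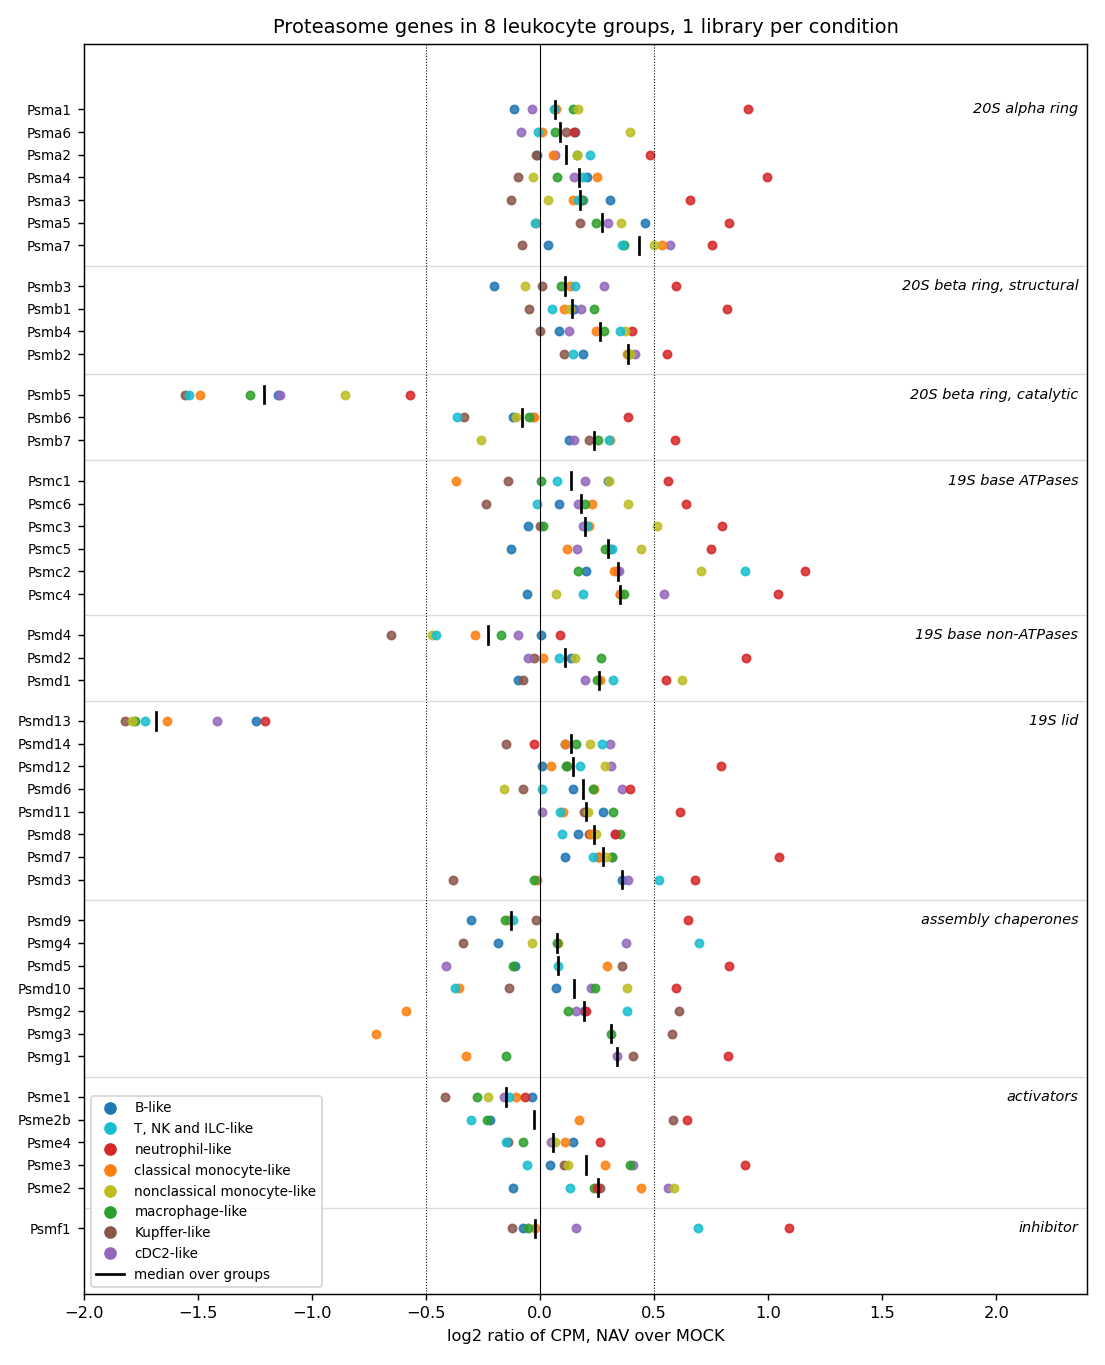
Log2 ratio of CPM, NAV over MOCK (horizontal axis), of the 44 members measured in at least 1 of the 8 leukocyte groups, arranged by role (vertical axis); each point is a group, the black bar is the median over groups, and dotted lines mark -0.5 and 0.5. Psmb5 and Psmd13 lie to the left of -0.5 in all 8 groups, and the neutrophil-like points (red) lie to the right of the others for most genes.

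Members were compared at their start sites because genes of the proteasome are known to be transcribed together through the antioxidant response element, bound by Nfe2l1 and Nfe2l2. The RefSeq table of start windows (GRCm38.p6, 250 bases before to 50 after each start) held 38 of the 45 members. The core TGACNNNGC of that element, sought on both strands, occurred in windows of 6 members (15.8% of the 38) and in 12.4% of all 32851 windows. The member share was thus near that of all windows. The core CCGGAAG of ETS factor sites occurred in windows of 15 members (39.5% of the 38) and in 8.86% of all windows, and 3 members held both. A member counted if any of its windows held the core, while the share of all windows is over single windows. The shares thus differ in unit, and a gene with several windows has more chances of a match. The following stretches lie before the start and outside annotated exons, read 5′ to 3′ on the strand of the gene, with the match in capitals. They are shown because Psmb5, lower in every group, shares the first core with Psmb6, Psmc6, Psmd9 and Psmd12, which were not. Psme4 (median ratio 0.06) also had this core in a window, but no such stretch was obtained for it.
Psmb5, chr14:54618023-54618082, minus strand: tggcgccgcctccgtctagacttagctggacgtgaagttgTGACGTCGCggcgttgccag
Psmb6, chr11:70525297-70525356, plus strand: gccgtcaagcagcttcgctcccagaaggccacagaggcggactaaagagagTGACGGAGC
Psmd9, chr5:123228130-123228189, plus strand: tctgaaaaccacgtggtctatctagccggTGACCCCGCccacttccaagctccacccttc
Psmc6, chr14:45329574-45329633, plus strand: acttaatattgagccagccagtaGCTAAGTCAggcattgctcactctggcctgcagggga
Psmd12, chr11:107479278-107479337, plus strand: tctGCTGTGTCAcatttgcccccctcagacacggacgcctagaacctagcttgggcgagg
In Psmc6 and Psmd12 the match is on the opposite strand. Median ratios over the groups were -1.21 for Psmb5, -0.08 for Psmb6, -0.13 for Psmd9, 0.18 for Psmc6 and 0.15 for Psmd12. The ETS core was found in windows of Psmd13, Psmd11, Psmd2, Psmd4 and Psmg1 among others. Of the members with it, 12 had a median above 0 and 2, Psmd13 and Psmd4, had one below 0. For Psmd13 no stretch before the start and outside annotated exons was obtained. Stretches of Psmd11, Psmd2 and Psmd4 with this core are shown beside each other, Psmd4 being the one of the 3 with a median below 0.
Psmd11, chr11:80428555-80428614, plus strand: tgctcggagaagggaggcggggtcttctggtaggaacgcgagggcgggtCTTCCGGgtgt
Psmd2, chr16:20651592-20651651, plus strand: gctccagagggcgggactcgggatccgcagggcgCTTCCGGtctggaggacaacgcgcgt
Psmd4, chr3:95042707-95042766, minus strand: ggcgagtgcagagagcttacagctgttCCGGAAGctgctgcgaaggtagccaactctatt
A match is a description of these letters only.

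Psmb5 (ENSMUSG00000022193, GRCm38 chr14:54614119-54618022, minus strand) had 3611 UMIs in all. Its MOCK and NAV levels were 46.0 and 20.7 CPM in B-like, 65.3 and 22.4 in T, NK and innate lymphoid-like, 50.8 and 23.1 in cDC2-like, and 29.9 and 20.1 in neutrophil-like cells. Kupffer-like cells had 68.3 and 23.1 CPM, macrophage-like cells 59.4 and 24.6, classical monocyte-like cells 74.4 and 26.4, and nonclassical monocyte-like cells 61.5 and 33.9. The NAV level lay below the MOCK level in each group, and the NAV levels of the groups were closer to each other than the MOCK levels. The ratio was lowest in Kupffer-like cells at -1.56 (-2.08 to -1.08), from 466 MOCK and 38 NAV UMIs, and nearest to 0 in neutrophil-like cells at -0.57 (-1.03 to -0.11), from 82 and 81 UMIs, where equal weight for each cell gave -0.48. Macrophage-like cells, with the most UMIs (941 and 211), had -1.27 (-1.49 to -1.05), a level 2.41-fold lower in NAV. Between 0.984% and 8.90% of the genes measured in a group had a ratio as low as that of Psmb5. Within clusters the ratio was negative in 23 of 23 clusters of at least 50 cells in each library, from -2.36 to -0.49, and the upper bound lay below 0 in 19. No cluster of CD4 T-like cells, part of the T, NK and innate lymphoid-like pool, had that size. In these cells Psmb5 had 3 of 113480 UMIs in MOCK and 8 of 248601 in NAV, few counts and not lower in NAV.

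Psmd13 (ENSMUSG00000025487, chr7:140881968-140898643, plus strand) had 2520 UMIs. MOCK and NAV levels were 36.5 and 15.4 CPM in B-like, 60.02 and 18.1 in T, NK and innate lymphoid-like, 50.2 and 18.8 in cDC2-like, and 31.0 and 13.4 in neutrophil-like cells. Kupffer-like cells had 43.1 and 12.2 CPM, macrophage-like cells 43.7 and 12.7, classical monocyte-like cells 47.7 and 15.3, and nonclassical monocyte-like cells 45.4 and 13.1. Every NAV level lay below every MOCK level, whichever groups were set against each other. The fold by which MOCK exceeded NAV ran from 2.31 in neutrophil-like to 3.54 in Kupffer-like cells, where the ratio was -1.82 (-2.55 to -1.17). In macrophage-like cells it was -1.78 (-2.08 to -1.49), from 691 and 109 UMIs. Only 0.534% to 2.33% of the genes measured in a group had a ratio as low. All 23 clusters had a negative ratio, from -3.28 to -1.02, and the upper bound lay below 0 in 22.

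**Figure D2:**
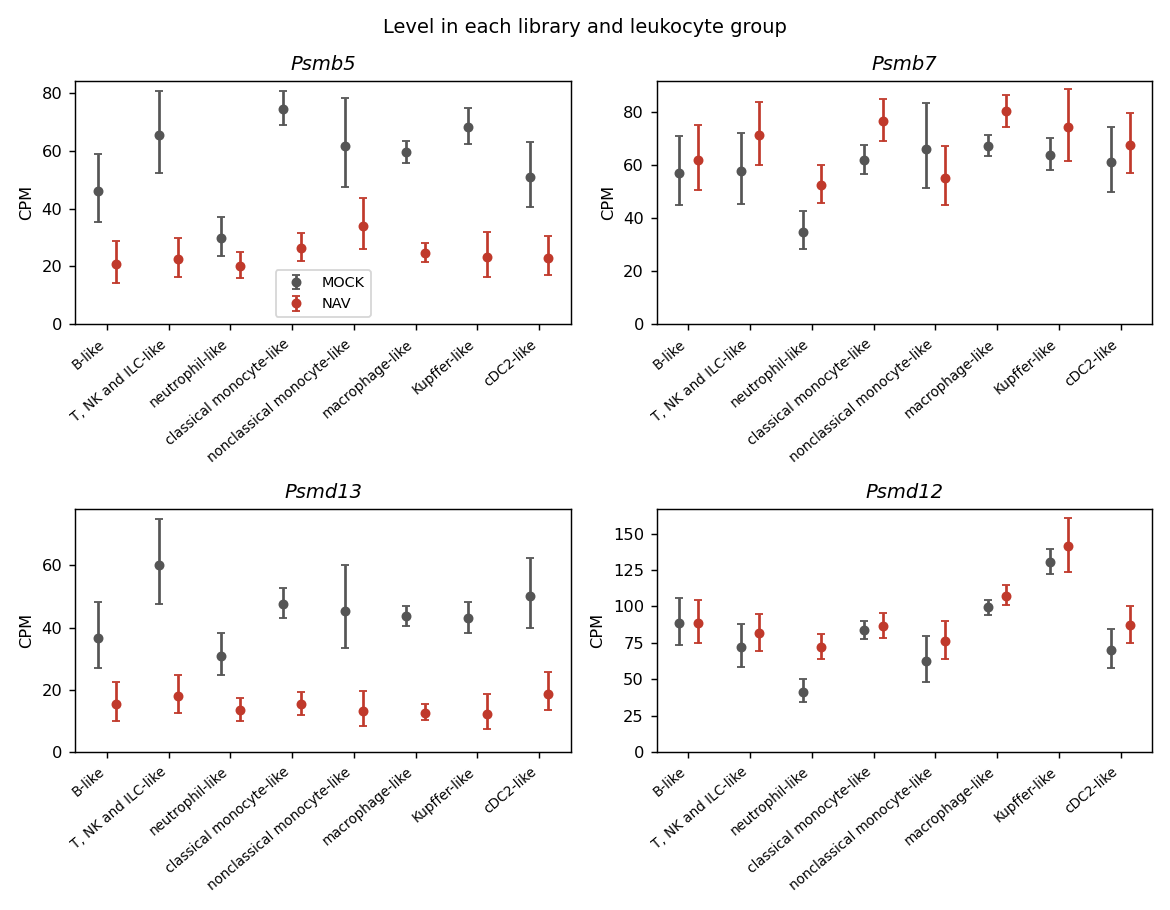
CPM (vertical axes, from 0) of Psmb5, Psmb7, Psmd13 and Psmd12 in 8 leukocyte groups (horizontal axes) of the MOCK (grey) and NAV (red) libraries; bars are exact 95% Poisson intervals of counting error. Psmb5 and Psmd13 lie lower in NAV in each group, while Psmb7 lies lower only in nonclassical monocyte-like cells, and Psmd12 lies between 0.01 and 0.79 on the log2 scale above MOCK.

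Sequence composition moved with these ratios. The last 500 transcript bases of Psmb5 had a GC content of 53.8% and those of Psmd13 56.0%, both in the highest decile of the genes measured in all 8 groups, which begins at 53.0%. Of all 97 genes lower in every group 63 lay in that decile, whose median ratio was -0.13 against 0.03 to 0.09 in the other deciles, and 26.4% of its genes had a median at or below -0.5. Psmd3 (57.6%), Psmg4 (54.8%), Psmg3 (54.4%) and Psmc3 (53.8%) were as rich in GC as Psmb5 and had medians of 0.36, 0.08, 0.31 and 0.20. Psmd4 (54.2%) had -0.23 and Psmb6 (53.2%) had -0.08. Psmd3 and Psmg4 were measured in 7 groups and Psmg3, with 406 UMIs, in 3, so they lie outside the set of that decile. The 5 members within the decile were Psmb5, Psmb6, Psmc3, Psmd13 and Psmd4, with a median of -0.23. The part of GC content in the Psmb5 and Psmd13 ratios was not tested. Of the 51-base words of the last 500 bases of Psmb5, 50.9% also occur in the pseudogene Gm3375, so its counts are uncertain in so far as reads could match both; for Psmd13 the share was 2.67%.

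**Figure D3:**
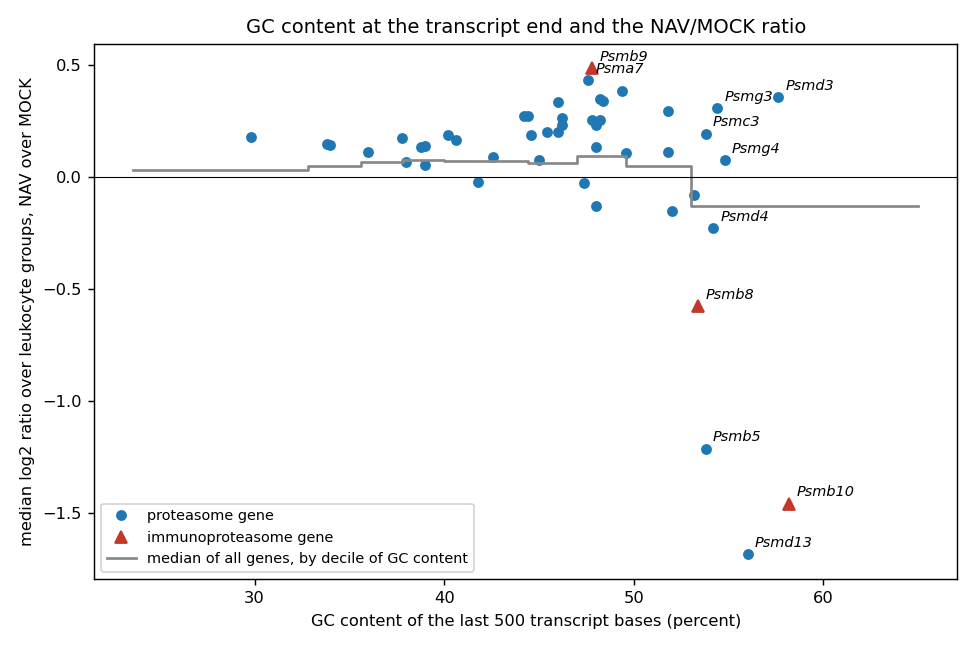
Median log2 ratio over the leukocyte groups, NAV over MOCK (vertical axis), against the GC content of the last 500 transcript bases in percent (horizontal axis) for 44 proteasome genes (blue) and 3 immunoproteasome genes (red triangles), with the median of all genes in each decile of GC content (grey steps). Psmb5, Psmd13, Psmb8 and Psmb10 lie lowest and all have over 53% GC. In that range Psmd3, Psmg3, Psmg4 and Psmc3 lie above 0, and Psmd4 and Psmb6 lie below 0.

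The 20S alpha ring, the gate of the core, had 7 members and each had a median ratio above 0. Medians of all genes also centred above 0. Over the 4774 genes measured in all 8 groups the median of such medians was 0.05, against 0.17 for the 35 members. Above 0 in all 8 groups were 6 of these members, against 7.90% of genes. Signs in this and the following role groups are to be read beside these values. Psma7 (alpha 4) was the highest of all members with a median of 0.43. Its levels in MOCK and NAV were 103 and 105 CPM in B-like cells, 175 and 253 in classical monocyte-like, 165 and 234 in nonclassical monocyte-like, 120 and 155 in macrophage-like, 125 and 185 in cDC2-like, and 144 and 136 in Kupffer-like cells. NAV was the higher library for Psma7 with an interval above 0 in 6 groups, B-like and Kupffer-like cells being the exceptions. Psma1 (alpha 6) had the lowest median of the ring, 0.07, with intervals above 0 in 2 groups, macrophage-like (0.14) and neutrophil-like cells (0.91). All genes measured in neutrophil-like cells had a median of 0.34. This shift is not subtracted from the neutrophil-like ratios and intervals given here and for the following role groups.

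The 4 structural beta subunits had medians from 0.11 (Psmb3) to 0.38 (Psmb2). Psmb2 stood at 163 CPM in MOCK and 213 in NAV in macrophage-like cells, a ratio of 0.39 (0.30 to 0.47), and its interval lay above 0 in 5 groups. Psmb3 had 1 such group, the neutrophil-like cells.

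The remaining catalytic subunits did not share the Psmb5 values. Psmb7 had a median of 0.23 and intervals above 0 in classical monocyte-like (0.31), macrophage-like (0.25) and neutrophil-like cells (0.59). Psmb6 had a median of -0.08, with levels of 114 and 110 CPM in macrophage-like cells and 111 and 88.3 in Kupffer-like cells. The Kupffer-like ratio of Psmb6, -0.33 (-0.60 to -0.08), was its one interval clear of 0. In the NAV Kupffer-like cells the hepatocyte gene Alb stood at 136 CPM against 7.47 in MOCK, and its part in the Kupffer-like ratios was not tested.

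In the 19S base all 6 ATPases had medians above 0, from 0.14 (Psmc1) to 0.35 (Psmc4). Psmc4 stood at 37.4 and 48.2 CPM in MOCK and NAV macrophage-like cells, a ratio of 0.37 (0.18 to 0.55). Psmc1 was lower in NAV in classical monocyte-like cells, at -0.37 (-0.61 to -0.13), and higher in neutrophil-like cells, at 0.56 (0.15 to 0.99). The transcript end of Psmc1 shares 20.2% of its 51-base words with AC110212.1 and Gm9575. Of the base subunits without ATPase activity, Psmd1 had a median of 0.26, and its transcript end shares 56.7% of its 51-base words with the readthrough gene Gm21972. Psmd4, the receptor that binds ubiquitin chains, had -0.23. Psmd4 was lower by the fold in Kupffer-like cells alone, at 70.9 and 45.1 CPM (-0.65, -1.03 to -0.30), and its interval lay below 0 in 4 groups.

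The lid had 8 members, and the 7 other than Psmd13 had medians above 0. Psmd3, a lid scaffold with 1370 UMIs, had the highest median, 0.36, but none of its intervals was clear of 0. Psmd8 is better counted with 12071 UMIs. It stood at 159 and 202 CPM in macrophage-like cells (0.35, 0.26 to 0.44), with intervals above 0 in 5 groups and a lowest ratio of 0.09. Psmd8 and Psmd12 were chosen as examples of the other lid genes after their values were seen.

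The assembly chaperones, which build the base and the core and leave the finished particle, were scarce. Medians ran from -0.13 (Psmd9) to 0.34 (Psmg1, measured in 5 groups), and no interval of either gene was clear of 0. The activators gave both directions. Psme1, a PA28 subunit that opens the core and is inducible by interferon, had ratios from -0.42 to -0.04, so below 0 in each group, with intervals below 0 in macrophage-like (-0.28) and Kupffer-like cells (-0.42). Its partner Psme2 had a median of 0.26 and intervals above 0 in 5 groups, among them cDC2-like cells with 87.8 and 129 CPM. Psme2 shares 54.7% of the words of its transcript end with Psme2b and Gm7928, and its counts are uncertain to that extent. Psme1 shares 17.1% with Gm46496 and Gm7776 and overlaps Emc9 on the opposite strand. The inhibitor Psmf1 had a median of -0.02, with 0.69 (0.03 to 1.39) in T, NK and innate lymphoid-like cells and 1.09 (0.25 to 2.0) in neutrophil-like cells. Psmc3ip did not reach 50 UMIs in any group.

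Summed over the 45 members, the MOCK and NAV levels were 1661 and 2415 CPM in neutrophil-like, 3263 and 3404 in B-like, 3377 and 3780.0 in nonclassical monocyte-like, and 3649.6 and 4086 in cDC2-like cells. Macrophage-like cells had 3736 and 4141 CPM, the T, NK and innate lymphoid-like pool 3809 and 4046, classical monocyte-like cells 3823 and 4170.1, and Kupffer-like cells 4117 and 4046. Neutrophil-like cells were lowest in both libraries, followed by B-like and nonclassical monocyte-like cells, and the order of the other groups differed between the libraries. Of the smaller groups, only cDC1-like cells (4619 and 5095) and cycling cells (4742 and 4724) lay above all these groups in both libraries. CD4 T-like cells had 3419 and 3568. The cycling cells were a different mix in each library. A lymphoid-like cluster gave 56 MOCK and 75 NAV cells, and a myeloid-like one 144 and 31. The ratio of the sums was -0.03 (-0.06 to 0.01) in Kupffer-like, 0.06 (0.0047 to 0.12) in B-like, 0.09 (0.04 to 0.14) in T, NK and innate lymphoid-like, and 0.13 (0.10 to 0.15) in classical monocyte-like cells. It was 0.15 (0.13 to 0.17) in macrophage-like, 0.16 (0.10 to 0.22) in nonclassical monocyte-like and 0.16 (0.12 to 0.21) in cDC2-like cells. With doublets kept the B-like ratio was -0.037. Differences of this size have no replicate to be set against.

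**Figure D4:**
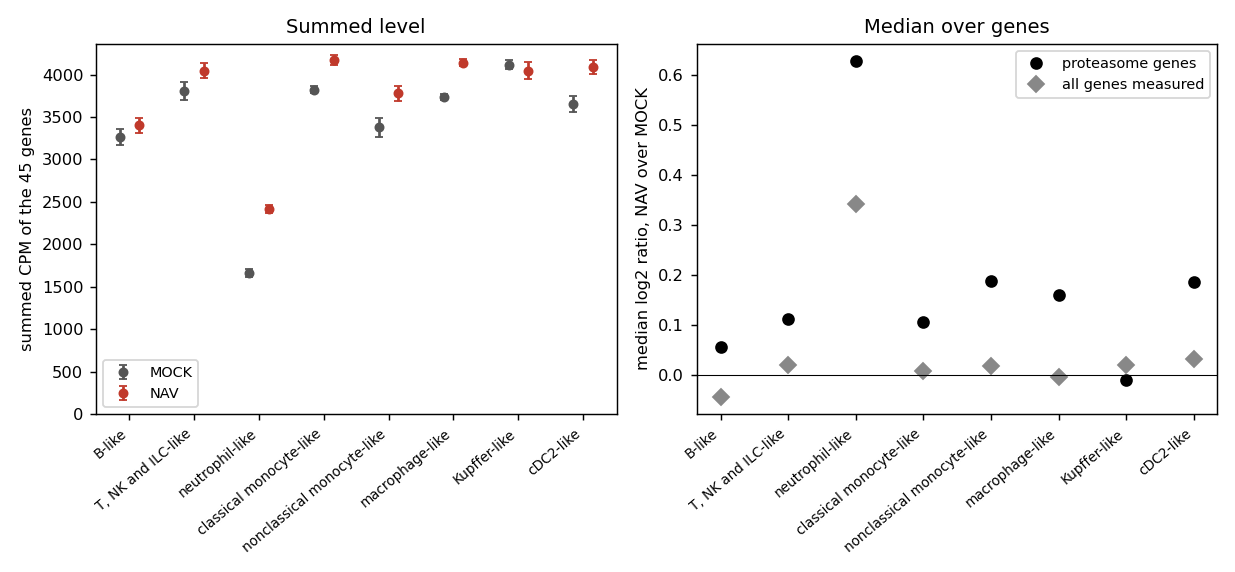
Left, summed CPM of the 45 genes (vertical axis, from 0) in the MOCK (grey) and NAV (red) libraries with exact 95% Poisson intervals; right, median log2 ratio, NAV over MOCK, of the members (black) and of all genes measured (grey), both by leukocyte group (horizontal axes). Neutrophil-like cells have the lowest sums and the highest medians, 0.63 for the members and 0.34 for all genes.

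Neutrophil-like cells had the highest ratio of the sums, 0.54 (0.49 to 0.59), and a median of 0.63 over 42 members, but there all genes measured had a median of 0.34. Relative to that shift the members' median was 0.29, and with doublets kept the median was 0.26 before any shift. Higher by the fold were 28 of 42 members, against 38.4% of genes, and 8 of 42 after the shift was subtracted, against 18.1% of genes treated in the same way. Lower by the fold were Psmb5 and Psmd13, against 10.7% of genes. The class was made of different cells in the libraries. A cluster with Siglecf at 528 CPM in MOCK held 44.2% of the MOCK and 82.5% of the NAV neutrophil-like cells, and a cluster with Retnlg at 17713 CPM in MOCK held the rest. Within the Siglecf cluster the sum of the members was 2232 and 2685 CPM (0.27, 0.20 to 0.33) and the all-gene median 0.11, and within the Retnlg cluster 1298 and 1346 (0.05, -0.05 to 0.16) and 0.04. The mix of clusters thus moved with the pooled ratio. Psmb5 was at -1.02 (-1.57 to -0.45) in the first and -0.63 (-1.75 to 0.38) in the second cluster, and Psmd13 at -1.02 (-1.73 to -0.29) and -1.31 (-2.39 to -0.36).

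In the other groups the members' medians stood beside all-gene medians within 0.05 of 0. They were -0.0095 in Kupffer-like, 0.06 in B-like, 0.11 in classical monocyte-like and in T, NK and innate lymphoid-like, 0.16 in macrophage-like, and 0.19 in cDC2-like and nonclassical monocyte-like cells. B-like cells had 2 of 42 members lower and 0 higher, against 11.5% and 3.86% of genes. T, NK and innate lymphoid-like cells had 2 and 4 of 42, against 9.76% and 6.23%. Classical monocyte-like cells had 4 and 1 of 44, against 13.9% and 5.45%, and nonclassical monocyte-like cells 2 and 4 of 36, against 11.7% and 9.02%. Macrophage-like cells had 2 and 0 of 44, against 13.8% and 5.16%. Kupffer-like cells had 3 and 3 of 44, against 12.3% and 9.7%, and cDC2-like cells 2 and 3 of 41, against 10.6% and 8.48%. Psmb5 and Psmd13 were among the lower members in each group, joined by Psmg2 and Psmg3 in classical monocyte-like and Psmd4 in Kupffer-like cells.

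The immunoproteasome genes, which were not members, were set against the catalytic subunits they replace. Psmb10 was lower in NAV with a median of -1.46, at 107 and 38.2 CPM in macrophage-like cells (-1.49, -1.67 to -1.32). Psmb8 was lower with a median of -0.57, at 201 and 116 CPM in macrophage-like cells (-0.79, -0.89 to -0.68). Psmb9 was higher with a median of 0.49, at 66.6 and 133 in cDC2-like cells (1.0, 0.68 to 1.33), its highest ratio among the 8 groups. The GC content of the transcript end was 58.2% for Psmb10, 53.4% for Psmb8 and 47.8% for Psmb9.

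As a share of the UMIs of the beta 5 pair, Psmb8 made up 71.7% to 86.7% in the MOCK groups and 73.9% to 91.6% in the NAV groups. The share was higher in NAV in 8 of 8 groups, and the exact binomial intervals were apart in 3, for example 71.7% (69.8 to 73.6) and 84.2% (81.5 to 86.7) in classical monocyte-like cells. Both genes of that pair were lower in NAV in the 8 groups. Among the smaller groups the Psmb8 share was lower in NAV only in CD4 T-like cells, at 89.3% (71.8 to 97.7) and 82.6% (68.6 to 92.2). There Psmb5 had only 3 and 8 UMIs. For beta 1, the Psmb9 share was 27.3% (24.6 to 30.1) in MOCK and 42.0% (38.4 to 45.7) in NAV classical monocyte-like cells, and it too was higher in 8 of 8 groups, with intervals apart in 4. In neutrophil-like cells it was 47.4% (39.4 to 55.6) in MOCK and 49.2% (43.5 to 54.9) in NAV. Among the smaller groups it was lower in NAV only in gamma-delta or IL-17-type T-like cells, at 32.6% (19.5 to 48.0) and 28.0% (16.2 to 42.5). For beta 2, the Psmb10 share was lower in 8 of 8 groups with intervals apart in each, for example 61.5% (59.6 to 63.3) and 32.2% (29.4 to 35.2) in macrophage-like cells. UMIs are not corrected for the length or capture of each transcript, so a share compares groups and libraries and not the amounts of the paired subunits.

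**Figure D5:**
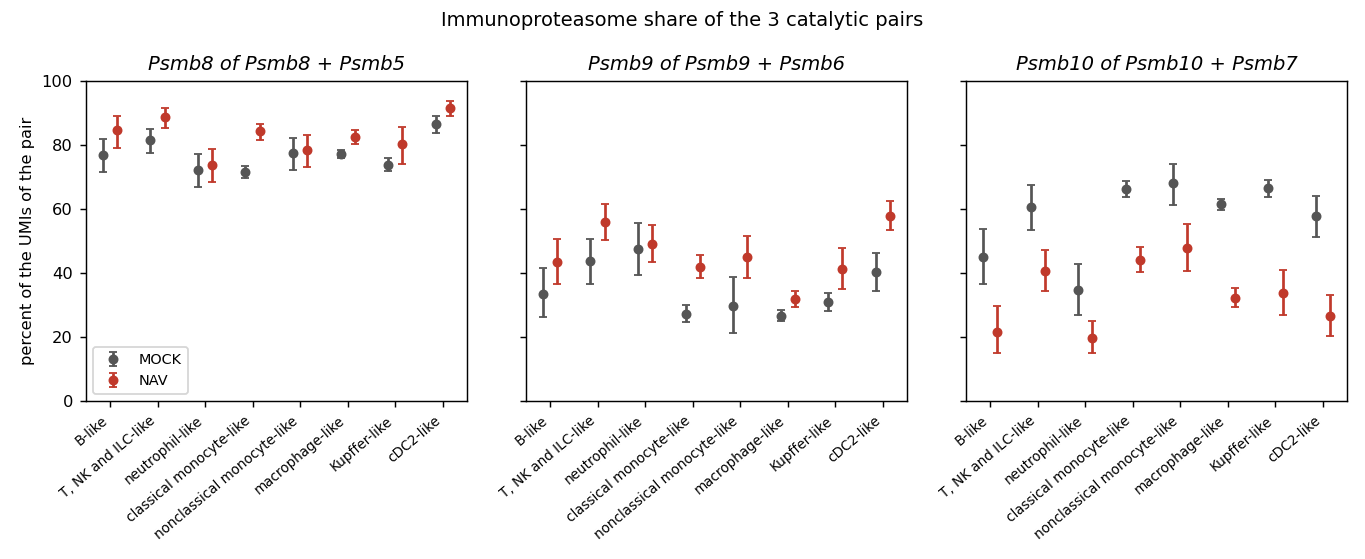
Percent of the UMIs of each catalytic pair that came from the immunoproteasome gene (vertical axis, 0 to 100) by leukocyte group (horizontal axes) in MOCK (grey) and NAV (red), with exact 95% binomial intervals. The Psmb8 and Psmb9 shares are higher in NAV in all 8 groups, and the Psmb10 share is lower in all 8.

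Of 25 listed genes of the wider pathway, 23 were in the tables under the listed symbols and 22 were measured in at least 5 groups; 0 were lower and 0 were higher by the fold in at least 5. These were 19S subunits with other names, assembly factors, transcription factors and their processing enzymes, ubiquitin shuttles, ubiquitin genes and the p97 segregase. Ubb, a polyubiquitin gene, had a median of 0.28 and intervals above 0 in 8 of 8 groups. Nfe2l1, the transcription factor that raises proteasome genes when the proteasome is inhibited, had a median of -0.43 and was lower by the fold in 4 groups, among them T, NK and innate lymphoid-like cells with 37.2 and 16.6 CPM (-1.17, -1.84 to -0.51). The sign differed between groups: Nfe2l1 was at 0.44 (-0.29 to 1.21) in nonclassical monocyte-like and 0.14 (-0.40 to 0.70) in neutrophil-like cells, both intervals including 0, and stood at 21.2 CPM in both libraries in cDC2-like cells. Pomp, the maturation factor of the core, had 0.23.

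The chaperonin, another ring complex of housekeeping subunits, gave a similar picture of 1 gene apart from its complex. Cct7 was lower in 8 of 8 groups with a median of -2.34, at 87.4 and 17.5 CPM in macrophage-like cells (-2.32, -2.57 to -2.08). The medians of the 7 other chaperonin genes lay above 0, up to 0.30 for Cct3. The transcript end of Cct7 had a GC content of 51.2%.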

How the data were processed

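Gene counts were deposited by the authors as whole UMI counts per gene and barcode, 1 matrix for MOCK and 1 for NAV; the submitters' processing notes name fastp, STARsolo 2.7.10a, Cell Ranger and mm10 without roles. A barcode was kept as a cell from 500 UMIs and 200 genes upwards if mitochondrial genes gave less than 20% of its UMIs. Doublet scores (scanpy 1.11.5) had an automatic threshold that marked 1 cell, so scores above 0.25 and clusters with a median above 0.10 were removed, thresholds set after seeing the scores. Cells were clustered on 2000 variable genes without Psm genes (leidenalg 0.10.2, resolution 1.0) and named by marker genes. UMIs were summed by library and group. Ratios have exact intervals conditional on the sum (scipy 1.17.1), levels exact Poisson and shares exact Clopper-Pearson intervals, all at 95%. Only the ratio intervals were tried on simulated data, drawn from the counts of macrophage-like cells. With 1 library for each condition no test was made. Described in full are, by rule, the catalytic and immunoproteasome genes, the lowest and highest member of each role group, and members past the fold in at least 5 groups. The members and lists were chosen with earlier results of these data known. GC content and shared 51-base words were computed on GENCODE vM21 (GRCm38) transcripts; no protein sequence was used here.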

Additional observations from a re-analysis of the deposited data

Results flagged for a closer look

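Psmg2, an assembly chaperone of the core, had opposite ratios in 2 groups, with counting intervals clear of 0 on both sides. It was at -0.59 (-1.11 to -0.09) in classical monocyte-like cells, from 123 MOCK and 46 NAV UMIs, and at 0.61 (0.10 to 1.10) in Kupffer-like cells, from 128 and 47 UMIs. With 1 library for each condition the difference between the groups was not tested. Psma8, which the minimum of 100 UMIs left out, had 57 UMIs over both libraries, above the 3 that a count of 0 allows. No group had the 4 samples that a check for outlying samples needs.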

How the results depend on the processing

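Each group's values were recomputed under the listed alternatives. All 56 alternative ratios of Psmd13 were at or below -0.5 (-1.98 to -1.04), and those of Psmb5 were negative in 56 of 56 and at or below -0.5 in 55 (-1.82 to -0.48). Of 72 alternative medians over the members 69 stayed within the interval of the main value, and of 56 ratios of the sums 46 did. For the medians this interval was taken from the ranked ratios of the members. It uses genes as units and gives no spread between libraries. The B-like interval ran from -0.06 to 0.13 and so held the -0.05 found with doublets kept. B-like and nonclassical monocyte-like cells were not divided into clusters, so the same cluster weights could not change their values. Unless a cause is named, it was not tested.

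With doublets kept, the B-like ratio of the sums turned from 0.06 to -0.037, the classical monocyte-like one was 0.093, and the neutrophil-like one 0.28 with a median of 0.26; members higher were 9 in neutrophil-like, 7 in cDC2-like, 2 in T, NK and innate lymphoid-like and 0 in classical monocyte-like cells. With median-of-ratios scaling, which subtracts the all-gene median, the neutrophil-like median was 0.29 and the ratio of the sums 0.20, with 8 members higher, and 1 was higher in B-like cells. With the same cluster weights in both libraries the neutrophil-like values were 0.27, 0.22 and 8, Psmd1 there turned to -0.038, the classical monocyte-like ratio of the sums was 0.080 with 0 higher, and 5 members were lower in T, NK and innate lymphoid-like cells. The stricter cell filter gave sums at -0.077 in Kupffer-like, 0.089 in classical monocyte-like and 0.17 in macrophage-like cells, with 1, 0 and, in B-like cells, 2 members higher. Leiden resolution 2.0 gave -0.077 and 1 higher in Kupffer-like cells, and 5, 0 and 2 higher in cDC2-like, classical monocyte-like and nonclassical monocyte-like cells. Equal weight for each cell gave 5 lower in Kupffer-like, 1 lower in neutrophil-like and 2 higher in nonclassical monocyte-like cells.

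With a minimum of 200 UMIs, which removes members, 0 were lower in B-like, cDC2-like, neutrophil-like, nonclassical monocyte-like and T, NK and innate lymphoid-like cells. In each of these groups Psmb5 and Psmd13 had fewer than 200 UMIs and were themselves removed. In classical monocyte-like cells 2 were lower. Higher were 16, 2, 0 and 0 in neutrophil-like, nonclassical monocyte-like, Kupffer-like and T, NK and innate lymphoid-like cells. At a fold threshold of 1.0, 4 were higher in neutrophil-like cells, 0 in Kupffer-like, cDC2-like, both monocyte-like and T, NK and innate lymphoid-like cells, and 2, 1 and 1 were lower in classical monocyte-like, neutrophil-like and nonclassical monocyte-like cells. Groups with few UMIs per cell limit what can be seen: Psmb5 and Psmd13 had 14 or fewer NAV UMIs in the CD8 T-like cells. No paired analysis was possible because each condition had 1 library.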
